A study of Malus domestica with 12 samples.

Results

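MD06G1201600 and MD06G1201200 are a pair of apple HSP101 genes that lie close together on chromosome 6. They were chosen from a list of heat shock transcripts that the study selected because they were lower in high scald peel, so their high over low scald ratios are given here as a description, without a test. The members are 2 gene models of the array, MDP0000217508 for MD06G1201600 and MDP0000308722 for MD06G1201200, each with 1 sense probe, out of 66935 with a sense probe. Values given for these genes are those of these probes, and a further probe that the study's annotation ties to MD06G1201600, MDP0000136587, is described with the other HSP101 probes. Each gene model also had an antisense probe, which the selection did not use.

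Superficial scald is a browning of apple skin that appears after long cold storage. The samples were peel of the cultivar Granny Smith taken at early harvest, before storage, from fruit batches that later developed high or low scald. The high scald group held 3 peel samples, 2015-P24, 2015-P31 and 2017-P31b (year and orchard plot). The low scald group held 2 peel samples, 2014-P24 and 2014-P36. Each sample was peel pooled from 20 fruit, taken on sun-exposed and shaded sides. Every high scald sample was harvested in 2015 or 2017 and every low scald sample in 2014, so harvest year and scald cannot be told apart.

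The samples were set against each other in 3 comparisons, each on 2 two-colour arrays with the dyes Cy3 and Cy5 swapped. C1 compared 2015-P24 with 2014-P24, C2 compared 2015-P31 with 2014-P36, and C3 compared 2017-P31b with 2014-P24. C1 and C3 thus share their low scald sample, and both arrays of C2 were on another slide than those of C1 and C3. Both arrays of a comparison carried the same 2 RNA samples, so the dye swap measures technical spread only. Between 10.8 and 29.7% of the probes were well above background in a channel, meaning that the signal exceeded the local background by more than 2.6 of its standard deviations (SD). The share was lowest in both Cy5 channels of C2, at 10.8% for 2015-P31 and 13.1% for 2014-P36.

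HSP101 belongs to the HSP100 (ClpB) family of ATP-driven ring proteins that pull proteins out of aggregates. It hands them to HSP70 and its HSP40 partners for refolding, whereas small heat shock proteins hold unfolding proteins until they can be rescued. In Arabidopsis HSP101 is required for acquired tolerance to heat, and heat shock factors switch on its transcription.

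The transcript of MD06G1201600 was lower in each of the 3 high scald samples than in either low scald sample. Its normalised log2 level, taken from single channels, was 10.17 and 10.08 in 2015-P24, 9.46 and 10.19 in 2015-P31 and 9.38 and 9.69 in 2017-P31b. In low scald peel it was 13.34, 13.63, 13.59 and 13.62 in 2014-P24 and 13.19 and 12.99 in 2014-P36. All 6 high scald channels thus lay below all 6 low scald channels, the nearest 2 values being 10.19 for 2015-P31 and 12.99 for 2014-P36. Over all probes measured in the 12 channels, 0.402% had such an arrangement.

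MD06G1201200 was separated in the same way, with a smaller gap. Its normalised log2 level was 8.28 and 8.27 in 2015-P24, 8.58 and 9.21 in 2015-P31 and 7.82 and 7.89 in 2017-P31b. The low scald levels were 10.90, 10.87, 10.76 and 9.93 in 2014-P24 and 10.20 and 10.995 in 2014-P36. Again no high scald channel reached a low scald channel. In bulk peel, fewer cells that express a gene and less of its RNA per cell cannot be told apart.

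**Figure D1:**
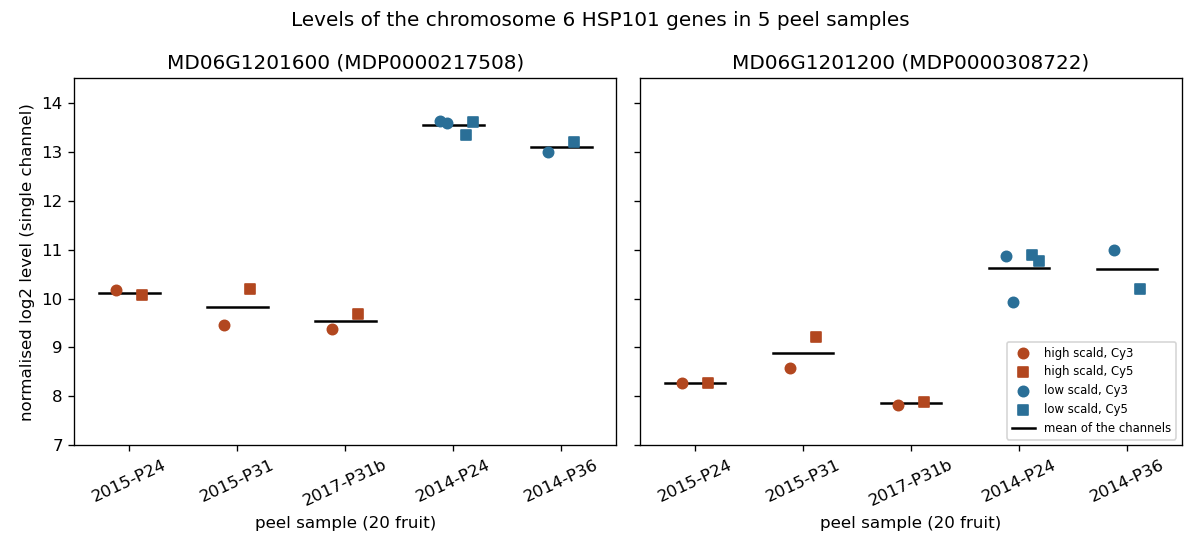
Normalised log2 level of the sense probe of each gene (vertical axis) in the 5 peel samples (horizontal axis), high scald in red and low scald in blue, circles for Cy3 and squares for Cy5, with a bar at the mean of the channels. All high scald points lie below all low scald points of the same gene, and levels are not comparable between the panels because the probes differ.

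Both probes were well above background in all 12 channels, and none of their spots was saturated. The mean spot intensity of MD06G1201600 ranged between 277 and 4774 in high scald channels, against 2656 and 27883 in low scald channels. That of MD06G1201200 ranged between 153 and 1203 in high scald channels and between 445 and 4507 in low scald channels. The dimmest reading of either gene was that of MD06G1201200 in the Cy5 channel of 2015-P31, at 5.07 background SDs, so even the lowest values were measured and not bounds.

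Within the low scald group, MD06G1201600 averaged 13.54 ± 0.14 in 2014-P24 (SD, 4 channels), against 13.09 ± 0.14 in 2014-P36 (SD, 2 channels), and the channels of these peels did not overlap. For MD06G1201200 the same peels averaged 10.62 ± 0.46 and 10.60 ± 0.56, with overlapping channels. The order of the high scald peels also differed between the genes. MD06G1201600 averaged 10.12 in 2015-P24, 9.83 in 2015-P31 and 9.54 in 2017-P31b, with the channels of 2015-P31 overlapping those of both other peels. MD06G1201200 was highest in 2015-P31 at 8.89, followed by 2015-P24 at 8.28 and 2017-P31b at 7.86, and none of these overlapped. These orders set C2 against arrays of another slide, and peel and slide cannot be told apart. For MD06G1201200 the C1 and C3 arrays also differed, as 2014-P24 itself was 0.54 lower on the C3 arrays. Its ratio in C3 was 0.12 above that in C1, so the levels do not order 2015-P24 and 2017-P31b for it.

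Ratios were taken within an array, so each compares samples on the same slide. C2 still differs from C1 and C3 in its slide, and the ratios of its dye-swapped arrays correlated by 0.28 over all probes, against 0.56 in C1 and 0.68 in C3. For MD06G1201600, log2 ratios (high over low scald) were -3.55 and -3.18 in C1, -2.80 and -3.73 in C2 and -3.89 and -4.24 in C3. The mean of the 3 comparisons was -3.57 ± 0.44 (SD, n = 3), a level 11.8-fold lower in high than in low scald peel. By comparison the transcript was 10.3-fold lower in C1, 9.62-fold lower in C2 and 16.7-fold lower in C3.

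For MD06G1201200 the log2 ratio was -2.60 and -2.61 in C1, -1.79 and -1.63 in C2 and -2.04 and -2.94 in C3. Its mean was -2.27 ± 0.49 (SD, n = 3), or 4.81-fold lower in high scald peel. The transcript was 6.09-fold lower in C1, 3.27-fold lower in C2 and 5.61-fold lower in C3. Negative ratios on all 6 arrays were seen for both genes, as for 3.18% of the sense probes. Both means were at or under -1, as were those of 0.191% of all probes. In each of the 3 comparisons both also stood at -1 or less, as 0.0509% of all probes did.

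Ranked by mean ratio from the lowest, MD06G1201600 was in place 4 and MD06G1201200 in place 35 of 133674 probes. In C2 alone the places were 4 and 55. A limma fit of the 3 ratios called 1 of 133709 probes at an adjusted p of 0.05 or below (0.000748%), and that probe was of neither gene. The count depended on the setting, from 0 with plain background subtraction to 457 with the 6 arrays as separate ratios and the comparison as a replicate block. The paper's own limma analysis combining the 3 comparisons reported many more transcripts at this threshold, both genes among them. Why its count differs from the one here was not tested. No p is given for the sense probes of these genes, since they were chosen on this contrast.

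MDP0000217508 of MD06G1201600 had a lower ratio than MDP0000308722 of MD06G1201200 on all 6 arrays. The difference between these log2 ratios was -0.96 and -0.56 in C1, -1.01 and -2.11 in C2 and -1.86 and -1.30 in C3. It averaged -1.30 ± 0.47 (SD, n = 3), or 2.46-fold. This is an order of probes, and whether it holds for the genes was not tested. MDP0000136587, the other probe tied to MD06G1201600, was less negative than MDP0000308722 on all 6 arrays. The difference was 0.83 ± 0.22 on average (SD, n = 3) and between 0.25 and 1.11 on single arrays. MDP0000136587 was, however, well above background in only 3 of 6 high scald channels, and its match to the gene was incomplete.

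In C2 the log2 ratio of MD06G1201600 was 97.1% of that in C1, and the difference of 0.10 between C2 and C1 was within the spread of the dye swaps, as the C2 arrays at -2.80 and -3.73 enclosed both C1 arrays. For MD06G1201200 it was 65.5%, with a difference of 0.90, and both C2 arrays were less negative than both C1 arrays. With arrays median-centred in place of loess the difference was -0.48 for MD06G1201600 and 0.35 for MD06G1201200, and the C2 ratio was 116.1% and 84.5% of the C1 ratio, so which gene was the more even depended on the scaling. Peel, plot and slide cannot be told apart between C1 and C2.

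C1 and C3 used the same 2014-P24 peel, so their difference sets 2017-P31b against 2015-P24, with 1 peel sample each and no test. For MD06G1201600 it was -0.70, and both C3 ratios were below both C1 ratios. With median-centred arrays it was -1.40. In the loess-corrected ratios, a difference of this size or larger in either direction was found for 9.88% of 14505 sense probes that were well above background in all low scald channels, where the SD was 0.45. For MD06G1201200 the difference was 0.12, and the C3 ratios of -2.04 and -2.94 lay on either side of the C1 ratios. The level of MD06G1201200 in 2014-P24 itself was 0.54 lower on the C3 than on the C1 arrays on the log2 scale, mostly through 1 Cy3 channel at 9.93. For MD06G1201600 the level in 2014-P24 was 0.11 higher on the C3 than on the C1 arrays.

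The study's annotation assigns 6 further probes to HSP101 of Arabidopsis, and these were chosen on the same samples. Several gene models match MD14G1211000 on chromosome 14, and their mean log2 ratios were -3.02 ± 0.49 for MDP0000476704, -2.73 ± 0.70 for MDP0000303015 and -1.72 ± 0.79 for MDP0000637620 (SD, n = 3). MDP0000755970, of the neighbouring MD14G1210600, had -2.27 ± 0.50. All 4 were lower in high scald peel on every array, as were 3.18% of the sense probes. MD06G1201600 had a lower mean than any of them, and MD06G1201200 had nearly the mean of MDP0000755970. MDP0000637620 was well above background in only 4 of 6 high scald channels and MDP0000476704 in 5 of 6.

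A second probe, MDP0000136587, was assigned to MD06G1201600 by an incomplete match of its bases. Its log2 ratio was -1.99 and -1.61 in C1, -0.68 and -0.61 in C2 and -1.79 and -1.93 in C3, with a mean of -1.43 ± 0.68 (SD, n = 3). It was thus lower on all 6 arrays, but its mean was smaller in size than that of MDP0000217508, and its C2 ratio was 36.0% of that in C1. Only 3 of its 6 high scald channels were well above background, against 6 of 6 low scald channels. Because HSP101 genes are close copies, how far each probe also reads its paralogs was not tested. The last probe, MDP0000206386, matched no chromosome gene, and was well above background in 0 of 6 high scald and 2 of 6 low scald channels, so no fold is given.

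**Figure D2:**
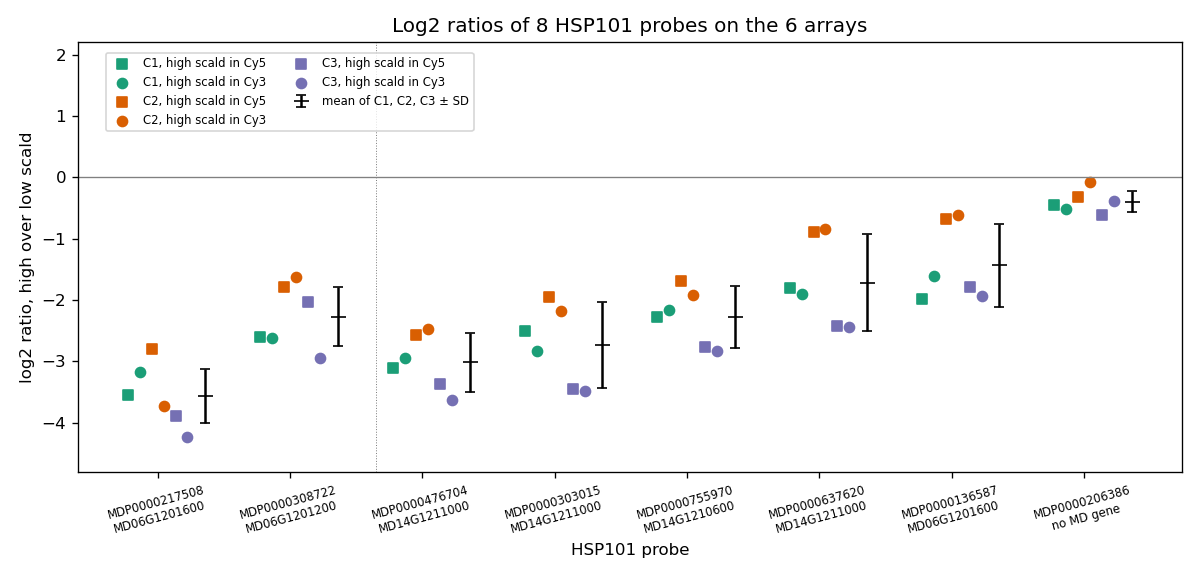
Log2 ratio of high over low scald (vertical axis) for 8 HSP101 probes (horizontal axis), the pair on chromosome 6 left of the dotted line, colours for the comparisons, squares for arrays with the high scald sample in Cy5 and circles for Cy3, and bars for the mean of C1, C2 and C3 with its SD. Every point is below 0, and the C2 points of MDP0000217508, at -2.80 and -3.73, enclose its C1 points.

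Over these 6 probes the median log2 ratio was -1.995, and -2.27 without MDP0000206386, which was near background. In the other 5 the C2 ratio was less negative than the C1 ratio. In the 4 probes of chromosome 14 both C3 arrays were below both C1 arrays, as for MD06G1201600 but not for MD06G1201200. For 5 of the 6, all high scald channels lay below all low scald channels. Among all probes measured in every channel the share was 0.402%. The 6 were chosen on these same samples, so their count is not independent evidence. Over all probes the median log2 ratio was -0.0002. These probes read the same peel samples and may read each other's transcripts, so they are not independent of the pair.

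Of the related genes, CLPB3 (MDP0000168167), the HSP100 protein of plastids, had a log2 ratio of -0.52 ± 0.08 (SD, n = 3), with values between -0.66 and -0.27 over the arrays. HSA32 (MDP0000271554), which in Arabidopsis works with HSP101 to prolong acquired heat tolerance, had -1.76 ± 0.63. Both were lower on all 6 arrays, as were 3.18% of the sense probes. CLPB3 stood between 0.43 and 0.58 below 0 in each comparison, a change smaller than that of either chromosome 6 gene.

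The refolding partners of HSP101 were taken from the same list of the study, so their direction is not independent evidence. All 7 HSP70 probes and all 3 HSP40 probes had negative ratios on every array, and all 10 had a mean of -1 or less. The shares were 3.18% of all sense probes for the former and 0.191% of all probes for the latter. These shares also stand beside the counts of heat shock factors and small heat shock proteins below. Their joint median was -2.08, and by comparison -2.75 for C1, -1.03 for C2 and -2.82 for C3. MDP0000311339, an HSP70, stood at -2.88, and MDP0000795157, a DNAJ protein of the HSP40 group, at -2.59. Some of the 10 were near background in high scald peel. MDP0000122734 was well above background in 0 of 6 high scald channels, and MDP0000220559 and MDP0000549793 in 3. None of the 10 was called by limma, which called only 1 of 133709 probes (0.000748%), so this says nothing about the 10 in particular.

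Among 5 heat shock factors, all 5 were lower on every array and 4 had a mean of -1 or less, with a median of -1.59 (C1 -1.96, C2 -0.80, C3 -2.01). The lowest was MDP0000243895 at -2.61 and the highest MDP0000155667 at -0.94. Their probes were well above background in between 0 (MDP0000489886) and 4 (MDP0000925901) of 6 high scald channels. The sizes of these ratios thus rest partly on values near background. Of 17 small heat shock protein probes, 16 were negative on all 6 arrays and 17 had a mean of -1 or less, with a median of -2.64 (C1 -3.32, C2 -1.32, C3 -3.20). Among them MDP0000424976 was well above background in 0 of 6 high scald channels and MDP0000574524 in 3. In C2, MD06G1201600 stood at -3.27 and MD06G1201200 at -1.71. The median of another family nearest to them there was that of HSP90, with 4 probes and a C2 median of -1.76. The HSP90 probes were spread, with MDP0000303430 at -2.39, MDP0000254260 at -2.30, MDP0000948331 at -1.23 and MDP0000181929 at -0.80.

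Across the 48 heat shock proteins, factors and co-chaperones that the study listed, MD06G1201600 came in place 3 by mean ratio and in place 12 in C1, but in place 1 in C2. MD06G1201200 was in place 24 by mean, in place 27 in C1 and in place 11 in C2. Ordered by the C2 ratio as a share of the C1 ratio, MDP0000217508 of MD06G1201600 was in place 2 and MD06G1201200 in place 10 of 48. MDP0000136587, the other probe tied to MD06G1201600, had a share of 36.0% and was not among the 48. With median-centred arrays the shares of the pair were 116.1% and 84.5%, and places were taken only for the loess-corrected ratios. In those the median share was 45.2% over the other 46 probes, with 40.3% for the small heat shock proteins and 67.1% for HSP90. The probes of the pair were well above background in every channel, but some of the 46 were not. MDP0000122734, MDP0000489886, MDP0000424976 and MDP0000197501 were so in 0 of 6 high scald channels. How far nearness to background changes the shares and places was not tested. The chromosome 14 HSP101 probes MDP0000755970 and MDP0000303015 were at 81.5% and 77.5%, in places 4 and 5, so MD06G1201200 was below both. MDP0000476704 and MDP0000637620, tied to the same gene as MDP0000303015 but not among the 48, were at 83.4% and 46.8%. Probes of the same gene thus differed in this share. In 45 of the other 46 listed probes the C2 ratio was less negative than the C1 ratio. The listed probes share their samples and arrays, and no test of the difference between HSP101 and the other families was made.

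**Figure D3:**
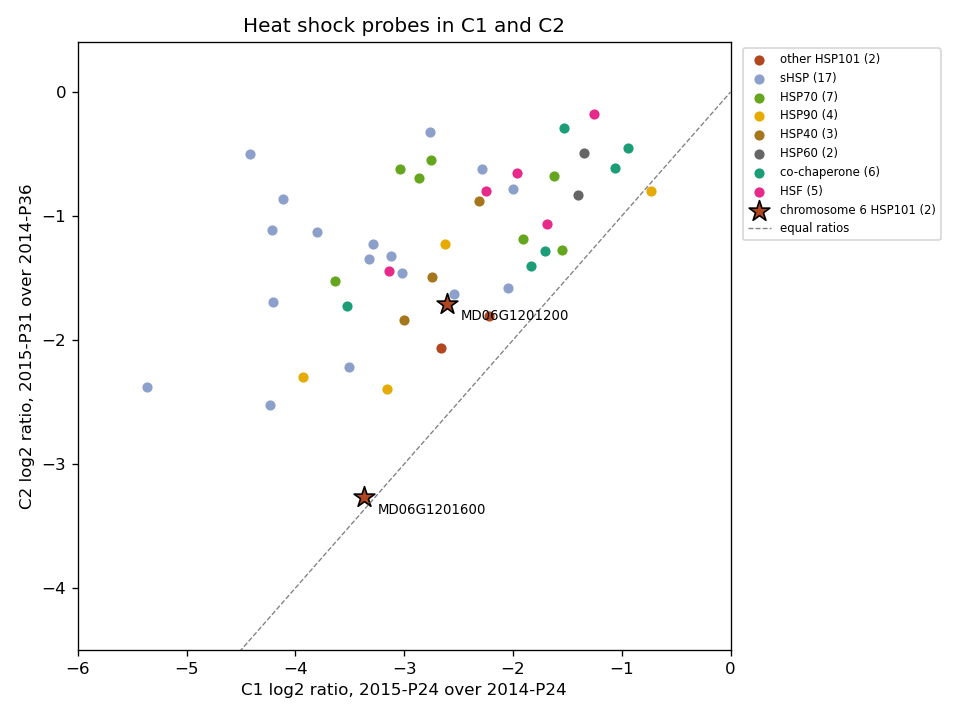
Log2 ratio in C2 (vertical axis, 2015-P31 over 2014-P36) against that in C1 (horizontal axis, 2015-P24 over 2014-P24) for the 48 heat shock probes listed by the study, coloured by family with the number of probes, stars for the pair on chromosome 6 and a dashed line for equal ratios. MD06G1201600 lies close to the dashed line at -3.36 and -3.27, while most other probes lie above it.

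The probes whose ratios over the 6 arrays were most like those of each gene were sought among 16516 probes that were measured on all arrays and well above background in all low scald channels. Likeness was the root mean square difference of the 6 log2 ratios. For MD06G1201600 the nearest was the HSP101 probe MDP0000476704, at 0.65, followed by MDP0000303430 and MDP0000254260, both annotated as the cytosolic chaperone HSP90.1, at 0.68 and 0.74. The small heat shock protein probes MDP0000214382 and MDP0000188935 came next at 0.75 and 0.88.

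MD06G1201200 had closer neighbours. The nearest was MDP0000604702 at 0.33, annotated as a class II small heat shock protein, and then MDP0000177640 at 0.36, annotated as a RING finger protein. MDP0000362505, another class II small heat shock protein, was at 0.38, the HSP40 probe MDP0000795157 at 0.40 and the HSP101 probe MDP0000755970 at 0.40. Neither chromosome 6 gene could appear in the other's set by the way the candidates were defined. Of the 10 probes named, 8 were on the study's heat shock lists. The study chose those lists on these same samples, so probes with ratios this low were likely to be on them. No share over all candidates was taken, so the count is not evidence about either gene.

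The antisense probes gave almost no signal. MDP0000308722_r, antisense to MD06G1201200, was not well above background in any of the 12 channels, with between 0.058 and 0.67 background SDs in high scald channels and between 0.088 and 1.28 in low scald channels. No fold is given for it, and its limma adjusted p was 0.940. MDP0000217508_r, antisense to MD06G1201600, stayed near background throughout high scald peel, at 0.99 background SDs or less. Each antisense probe had 2 spots, and a channel counted as well above background where both spots were. In low scald peel MDP0000217508_r met this in 4 of 6 channels, 3 of them of 2014-P24, with between 0.69 and 3.86 background SDs.

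The log2 ratio of MDP0000217508_r was -0.91 and -0.75 in C1, -0.23 and -0.19 in C2 and -0.74 and -0.62 in C3. The mean was -0.57 ± 0.14 (SE, n = 3 comparisons), lower in high scald peel on 6 of 6 arrays, but it did not pass the test (limma adjusted p = 0.836, unadjusted p = 0.020). Antisense probes with negative ratios on all 6 arrays made up 1.52% of all antisense probes. No fold is given for MDP0000217508_r, since 0 of 6 high scald channels were well above background. Its mean log2 level was 6.68 in 2014-P24 and 6.21 in 2014-P36, where only 1 channel was well above background. MDP0000217508_r was brighter in low scald peel, where the sense transcript was high, but stayed at 3.86 background SDs or less even there. The part of the sense signal in it was not tested.

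**Figure D4:**
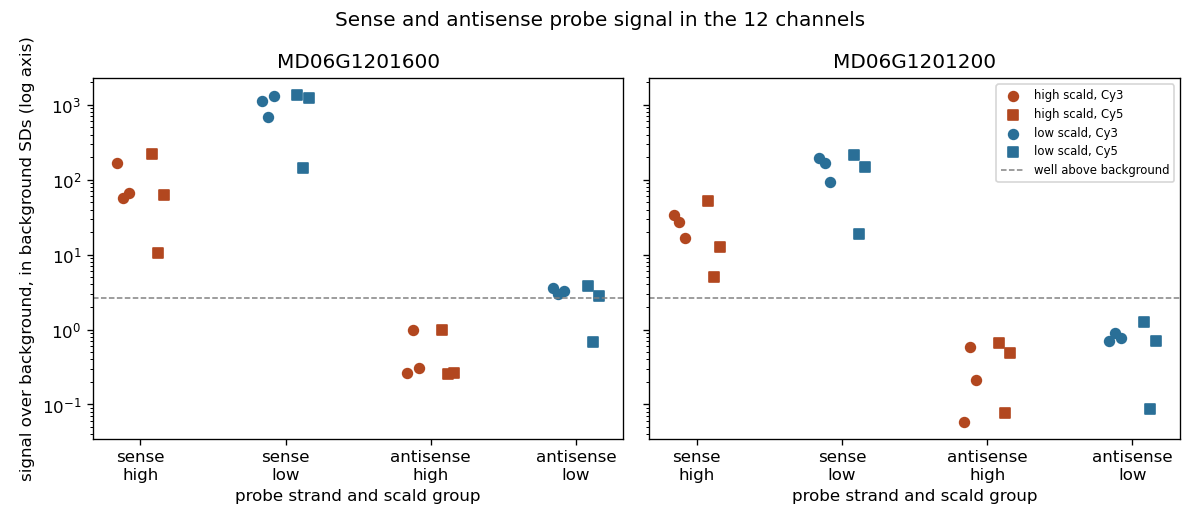
Spot signal less local background, in background SDs on a log axis (vertical), of the sense and antisense probes of each gene in high scald (red) and low scald (blue) channels (horizontal), circles for Cy3 and squares for Cy5, with a dashed line at 2.6, the limit for well above background. All sense points lie above the line, and the only antisense points above it are MDP0000217508_r in low scald peel, of which the one at 2.84 had 1 of its 2 spots below the limit.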

How the data were processed

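RNA of 5 peel samples was hybridised by the authors to 6 two-colour Agilent arrays, scanned, and read with Agilent Feature Extraction 11.5. The intensity values they deposited are mean spot signals per channel without background subtraction, with local background medians. Their lowess-normalised values, deposited per channel as log2, served here only as an alternative.

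From the scanner values, background was corrected with normexp (offset 50) and dyes were balanced by loess (span 0.3, 4 iterations) in limma 3.58.1 under R 4.3.3. Control spots had no weight and outlier spots were left out. Spots of a probe were averaged, then both arrays of a comparison. An intercept was fitted to the 3 ratios with eBayes and Benjamini-Hochberg adjustment over 133709 probes, and the procedure was tested on simulated data. Channel levels were additionally scaled by Aquantile. Replicates are peel samples of different years or plots, and p-values measure only the spread between 3 comparisons, of which 2 share a sample. The number of arrays limits the precision.

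The genes and lists were chosen with earlier results of these data known. Named are the pair, its antisense probes, the HSP101, HSP70, HSP40, HSP90, heat shock factor and small heat shock protein lists, CLPB3, HSA32, and the 5 probes nearest to each gene. Gene links are those of the study's annotation, and genome coordinates and probe sequences were not used here. Peel marker genes were not analysed here. Orchard plots follow the sample labels. The paper's array design names the same plots for 2014 and 2015, but its plant material paragraph has P31 and P36 the other way round between these years, and it calls the 2017 plot R11. The year and scald group of each sample are not affected. The alternatives were other background corrections, scalings, spot and probe filters, the deposited table, arrays as separate ratios, blocks, and leaving out comparisons or arrays.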

Additional observations from a re-analysis of the deposited data

Results flagged for a closer look

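In 20 sets of 6 values, the ratios of 10 HSP101-related and 2 antisense probes over the arrays and the levels of the pair and its antisense probes within each scald group, 0 sets held a value far enough from the others to be marked as an outlier.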

How the results depend on the processing

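The mean log2 ratio stayed between -3.70 and -3.49 for MD06G1201600 and between -2.54 and -2.13 for MD06G1201200 under 12 alternative settings, and leaving out a comparison or an array gave -3.72 to -3.32 and -2.55 to -2.10. The difference between MDP0000217508 and MDP0000308722 was -1.36 to -1.16 over the settings and -1.57 to -1.11 with a comparison or array left out. Without loess single arrays ranged between -5.42 and -1.79 for MD06G1201600, and the dye swaps offset each other in the mean.

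The difference of C2 from C1 for MD06G1201200 was 1.04 without background subtraction, 0.78 with a normexp offset of 10, 0.35 with median-centred arrays and 1.06 in the deposited table, and 0.82 to 0.98 with an array or comparison left out. For MD06G1201600 it was -0.48 to 0.30, and -0.37 to 0.57 with one left out, so its sign was not fixed. The difference of C3 from C1 for MD06G1201600 was -1.40 with median-centred arrays, and -0.89 to -0.51 with one left out. For MD06G1201200 it was -0.47 to 0.12, and -0.33 to 0.57 with one left out. These alternatives for C2 and C3 against C1 were chosen after seeing the data. The median of the other HSP101 probes was -2.65 with plain background subtraction, and -2.32 to -1.69 with one left out.

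The number of probes called (1) was 0 with plain subtraction, with median-centring and with outlier spots used. It was also 0 with C1 and C3 averaged, which is the same fit as slide as a block, and 20 with a normexp offset of 10. With the 6 arrays as separate ratios it was 432 without a block and 457 with the comparison as replicate block, where dye swaps of the same RNA stand in for replicates. It was 0 to 1 with a comparison or array left out. The unadjusted p by limma was under 0.05 for 7098 of 133709 probes in the main fit. It was so for 6089 probes with plain subtraction, 3472 with median-centring, 7092 with outlier spots used and 5329 with C1 and C3 averaged. These counts were not set against the number expected without any difference, so they are not evidence of changed probes. Both antisense probes were negative in all 21 fits, the repeated ones included, with adjusted p between 0.12 and 1.00 for MDP0000217508_r and between 0.46 and 1.00 for MDP0000308722_r. The log2 ratio of MDP0000217508_r was -2.78 with plain subtraction and -1.27 with a normexp offset of 10, and leaving one out gave -0.76 to -0.44, so the size of this near-background value follows the background correction.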
